A study of Rattus norvegicus with 8 samples.

Results

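The matrix metalloproteinase (Mmp), ADAMTS and tissue inhibitor of metalloproteinases (Timp) genes were followed in the thoracic aorta of control Wistar rats and of GK rats, the Goto-Kakizaki strain bred for non-obese diabetes, whose group label is Diabetic Macroangiopathy. Members were taken by gene name (Mmp, Adamts or Timp followed by a number), which gave 36 of the 19238 genes in the table, 14 Mmp, 18 Adamts and 4 Timp. Each group had 4 libraries of total RNA from rats 7 to 8 weeks old, and the libraries carry the numbers 7 to 10 in both groups. No drug, transgene or allele is named in the labels, so strain and diabetes are 1 split of the samples and cannot be told apart. Only the titles hint at a separate rat for each library, so the p-values rest on the variation among these 8 libraries, which may be partly technical. Total gene counts lay between 11760397 in control 8 and 16266151 in GK 7. All 8 smooth muscle markers searched were detected in every group, with Myh11, the smooth muscle myosin, between 958 CPM (counts scaled to the size and composition of each library) in GK 7 and 4903 in control 10. The library GK 9 stood apart: Myh1, a myosin of skeletal muscle fibres, reached 8279 CPM there and did not pass 11.4 CPM elsewhere, and the score of 6 nerve and Schwann cell markers (mean log2 of CPM + 1) was 7.35 there and 2.12 to 4.60 elsewhere. Results are therefore also given without GK 9 where that ends or adds a call.

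Matrix metalloproteinases are zinc enzymes made as inactive proenzymes, which together can cut most proteins of the extracellular matrix. The ADAMTS enzymes are their secreted relatives with thrombospondin repeats, and they trim procollagens, cut proteoglycans such as versican and aggrecan, or act on microfibrils. The 4 TIMPs bind the active site of these enzymes and block it, Timp3 with the widest reach into the ADAMTS family, while Timp2 together with Mmp14 also takes part in activating the Mmp2 proenzyme at the cell surface. In the arterial wall these genes are known for their part in remodelling of elastin and collagen.

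Promoter windows of 250 bases before to 50 after the transcription start came from the RefSeq table of build GRCr8, which held 25 of the 36 members. The windows below are shown for the 2 members past the test that the table held, Mmp27 and Adamts10, and for Adamts1, the member with the lowest adjusted p among those higher in GK. Capitals mark 2 motifs searched on both strands, the TATA motif TATAAA and the GC box GGGCGG; they overlapped nowhere in these windows.
Mmp27 (chr8:13030502-13030801, plus strand): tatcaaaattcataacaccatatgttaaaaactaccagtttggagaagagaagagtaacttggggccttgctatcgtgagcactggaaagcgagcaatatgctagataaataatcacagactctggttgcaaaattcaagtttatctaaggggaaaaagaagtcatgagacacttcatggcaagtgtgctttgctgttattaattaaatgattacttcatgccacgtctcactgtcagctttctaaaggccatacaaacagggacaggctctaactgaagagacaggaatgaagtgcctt
Adamts10 (chr7:15033685-15033984, plus strand): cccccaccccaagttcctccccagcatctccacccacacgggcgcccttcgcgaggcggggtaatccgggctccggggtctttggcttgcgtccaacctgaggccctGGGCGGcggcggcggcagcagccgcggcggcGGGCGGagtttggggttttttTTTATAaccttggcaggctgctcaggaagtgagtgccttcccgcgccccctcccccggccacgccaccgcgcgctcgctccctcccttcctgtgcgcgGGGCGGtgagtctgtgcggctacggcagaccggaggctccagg
Adamts1 (chr11:38427335-38427634, minus strand): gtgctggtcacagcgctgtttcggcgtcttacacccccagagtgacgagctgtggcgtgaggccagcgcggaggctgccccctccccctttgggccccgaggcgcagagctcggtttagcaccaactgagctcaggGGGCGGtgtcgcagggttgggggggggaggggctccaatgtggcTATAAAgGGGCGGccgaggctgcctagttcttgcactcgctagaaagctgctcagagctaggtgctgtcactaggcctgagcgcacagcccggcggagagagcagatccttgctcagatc
The Mmp27 window held neither motif and was 39.3% G and C, while the Adamts10 window held 1 TATA motif and 3 GC boxes and the Adamts1 window 1 and 2. Over the members, 7 of 25 windows held a TATA motif and 13 of 25 a GC box, against 14.3% and 34.9% of all 27457 promoter windows. The AP-1 motif TGANTCA was in the windows of Mmp12 and Mmp13 and in 7.33% of all windows. The Mmp27 and Adamts10 windows shared none of the motifs searched.

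How abundant each member is can be compared per transcript length from the deposited FPKM (fragments per kilobase of transcript, scaled to library depth). In controls Timp3 had the highest mean, 259 ± 43.2 FPKM (SD, n = 4), although Timp2 was above Timp3 in control 9 (249 and 225 FPKM). Timp2 followed at 168 ± 66.6 and the gelatinase Mmp2 at 164 ± 48.1, which did not differ beyond their spread. Mmp14, the membrane-bound collagenase, stood at 58.6 ± 23.1 FPKM, Timp4 at 31.7 ± 10.6 and Adamts10 at 29.8 ± 7.07, again with overlapping spreads. In GK the order was Timp3 at 172 ± 24.3 FPKM, Timp2 at 67.9 ± 55.9, Timp4 at 50.3 ± 5.67, Mmp2 at 43.7 ± 30.8, Adamts1 at 37.2 ± 17.6 and Mmp14 at 20.8 ± 11.3. From Timp2 to Adamts1 the spreads (mean ± SD) of these GK values overlapped. At the other end, 10 members averaged below 0.5 FPKM over the 8 libraries, among them the collagenases Mmp8 and Mmp13 and the gelatinase Mmp9.

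Lower expression in GK was the more frequent direction in all 3 families. Of the 29 members that passed the filter on low counts, 4 fell and none rose at an edgeR quasi-likelihood adjusted p under 0.05 (Benjamini-Hochberg over all genes), which is 13.8% of them against 7.28% of all 13673 genes tested in either direction (3.31% lower and 3.96% higher). At an unadjusted edgeR p under 0.05 there were 17 of the 29 and 3775 of all 13673 genes. DESeq2 called 12 members lower and 2 higher, and 18.2% of all genes. The 4 that fell were Mmp2, Mmp14, Mmp27 and Adamts10. The log2 fold change (GK over control) was below 0 for 21 of the 29 and had a median of -0.58, against 8e-04 over all genes. All 4 GK libraries lay below all 4 controls in CPM for 6 members, the 4 above with Adamts2 and Adamts6, and above them for none. Over all genes 7.64% lay wholly below and 7.93% wholly above. Without GK 9 the calls were 2 higher and 14 lower, with a median of -1.11, when 22.1% of all genes were called. The calls of the authors' deposited table were lower for 10 of the 36 members and higher for 1, against 5.4% of all genes called there. Those calls ask for a q under 0.05 and at least a 2-fold change, over all 19238 genes. The edgeR calls above have no fold minimum and cover the 13673 filtered genes, so the 2 counts follow unlike rules.

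**Figure D1:**
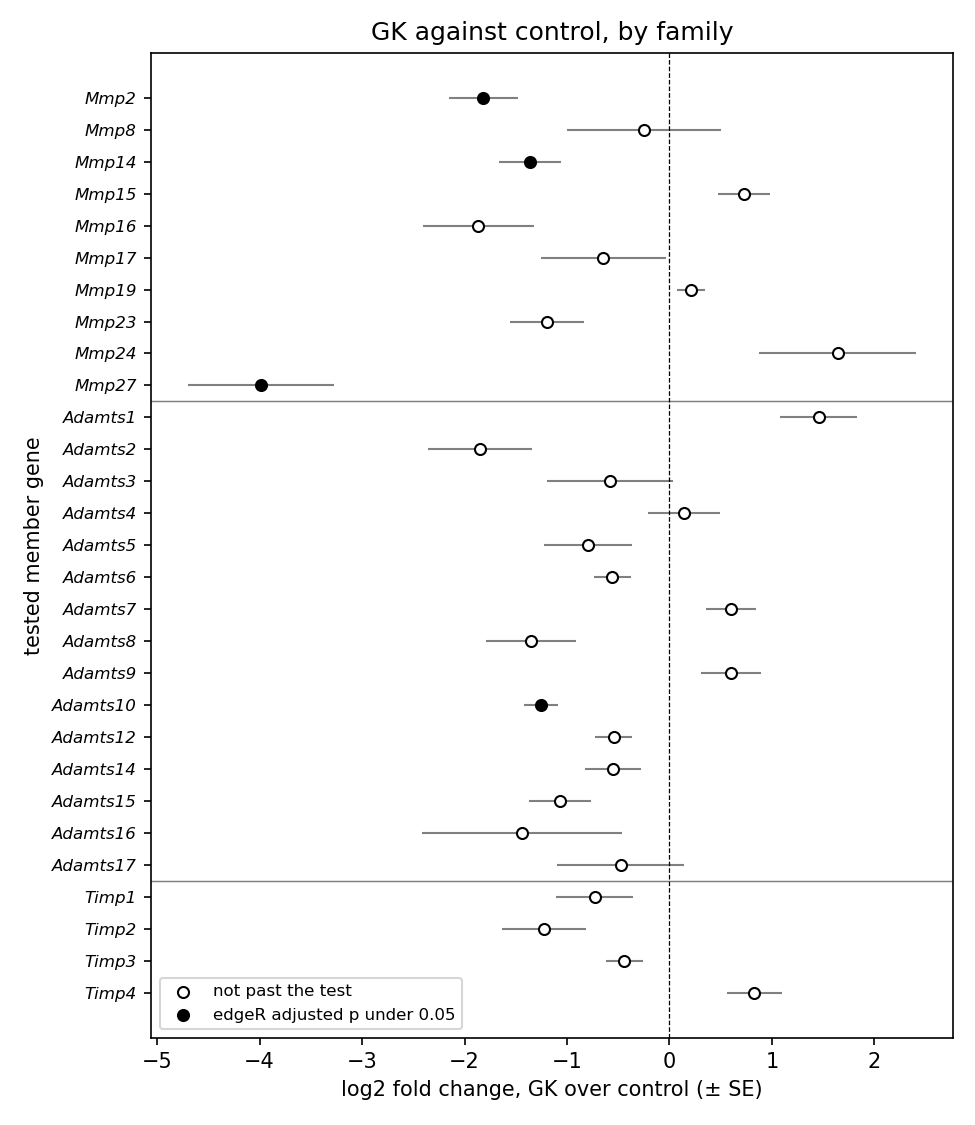
The horizontal axis gives the log2 fold change of GK over control for each tested member on the vertical axis, with its SE (n = 4 per group), grouped as Mmp, Adamts and Timp from top to bottom. Filled points are the 4 members with an edgeR adjusted p under 0.05, all to the left of 0, and 21 of 29 points lie left of 0.

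Some markers of cell types also differed between the groups, where edgeR called 7.28% of all genes. Of 6 fibroblast markers 2 fell, with a summed level of 1498 to 4237 CPM in controls and 815 to 2570 in GK, and of 8 smooth muscle markers 2 fell (5373 to 14489 CPM in controls, 2529 to 6792 in GK). Of 11 tested general adipocyte markers 3 rose (6319 to 9231 CPM in controls, 8671 to 17112 in GK), and of 6 tested brown adipocyte markers 2 rose (540 to 2981 and 1608 to 5649 CPM). Of 5 endothelial markers 2 rose (499.8 to 783 and 784 to 1012 CPM) and of 6 macrophage markers 1 fell (398 to 952 and 249 to 408 CPM), with no detected marker of these lists at 0 in every library. The adipocyte score, the mean log2 CPM of 17 fat markers, was 7.97, 8.29, 7.43 and 7.39 in the controls (7 to 10) and 9.02, 9.06, 8.12 and 9.07 for GK (7 to 10). Single markers went against their list. Endothelial Vwf was at 70.4 to 125 CPM in GK 7, 8 and 10 and 182 to 354 in controls. The adipocyte gene Lep was at 8.32 to 49.6 CPM in GK and 46.6 to 237 in controls. Macrophage Cd68 was at 52.1 to 59.7 CPM in GK 7, 8 and 10 and 22.3 to 31.7 in controls. In these bulk samples fewer cells of a type and less RNA per cell cannot be told apart. With the score as a covariate edgeR called no member lower, and Mmp24 and Adamts1 higher, with a member median of -0.11. Among the GK libraries only GK 9 lay within the control range of the score, so this fit cannot clearly separate the score from the group.

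Of the 10 tested Mmp genes 3 fell (30%, against 7.28% of all genes), Mmp2, Mmp14 and Mmp27. The count was 0 without control 10, GK 7 or GK 10, when 0.974%, 1.34% and 2.1% of all genes were called. Mmp2 (ENSRNOG00000016695; chromosome 19, 15542765 to 15570611 in the files' coordinates, for which the sources used here name no rat build), the gelatinase of mesenchymal cells, stood at 375, 410, 538 and 541 CPM in controls 7 to 10 and at 88.8, 122, 232 and 87.1 CPM in GK 7 to 10, the order in which all library values follow. The highest GK library, GK 9, still lay below the lowest control. The log2 fold change was -1.82 ± 0.34 (SE, n = 4 per group), a 3.52-fold lower level with an edgeR adjusted p of 0.0223. Leaving out control 10, GK 7, GK 8 or GK 10 ended the call (edgeR adjusted p 0.0602 to 0.0858), and with the adipocyte score the log2 fold change was -0.92 (edgeR adjusted p = 0.103).

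Mmp14 (ENSRNOG00000010947; chromosome 15, 33074441 to 33083655), which activates Mmp2 and cuts fibrillar collagen at the cell surface, was at 124, 77.0, 157 and 166 CPM in the controls and 39.9, 48.7, 77.0 and 37.8 CPM in GK. The groups barely separated, since control 8 and GK 9 differed only in the second decimal (77.00 and 76.97 CPM). Mmp14 fell by 1.36 on the log2 scale (SE 0.30, edgeR adjusted p = 0.0355). Only the fits without control 8 (adjusted p = 0.0329) and without GK 9 (0.00758) kept the call among the 8 that left out 1 library, the others giving edgeR adjusted p-values of 0.0594 to 0.116. With the adipocyte score its log2 fold change was -0.32 (edgeR adjusted p = 0.424).

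Mmp27 (ENSRNOG00000040208), a little-studied member of the stromelysin-like group, had 57, 16, 51 and 51 counts in controls 7 to 10 and 3, 0, 7 and 1 in the GK libraries. No GK library reached the lowest control, although the counts were small in both groups. Its log2 fold change of -3.99 ± 0.71 (edgeR adjusted p = 0.0197) was the lowest of the 29 members. Without control 10, GK 7 or GK 10 the adjusted p was 0.0600 to 0.0729, and with the adipocyte score 0.0985. Mmp27 lies on chromosome 8 (5790034 to 5800342 in the same coordinates) next to the neutrophil collagenase Mmp8, 11331 bases away with no gene of the table between them. Mmp8 had a log2 fold change of -0.25 ± 0.75 (edgeR adjusted p = 0.852). GK 10 held 2.34 CPM of Mmp8, while the remaining GK libraries held 0.275 to 0.387. The neutrophil score, the mean log2 CPM of 6 markers, was 2.49 in GK 10 and 2.23 to 2.35 in the rest of that group, and its part in the Mmp8 value was not tested.

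The other membrane-anchored Mmp genes went in both directions without passing the test. Mmp16, a relative of Mmp14, had a log2 fold change of -1.86 ± 0.54 (edgeR adjusted p = 0.0700) and Mmp17, anchored through a lipid, -0.64 ± 0.61. Mmp15 stood at 0.73 ± 0.25 and the brain-rich Mmp24 at 1.64 ± 0.77 on the same scale. GK 9 held 5.48 CPM of Mmp24 against 0.343 to 2.48 in GK 7, 8 and 10, and without it the log2 fold change was 0.81 (edgeR adjusted p = 0.388). Mmp23, a membrane-spanning member with an unusual C-terminal part, was measured at 15.4, 35.4, 39.2 and 33.5 CPM in controls 7 to 10. Its GK levels were 8.32, 11.9, 22.0 and 11.6 CPM, so control 7 overlapped with GK 9 (log2 fold change -1.19 ± 0.36, edgeR adjusted p = 0.0798). Without GK 9 the genes Mmp16, Mmp17 and Mmp23 were called lower (edgeR adjusted p = 0.0109, 0.0359 and 0.0155), while with the adipocyte score the log2 fold change of Mmp17 turned to 0.95 (edgeR adjusted p = 0.289).

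Mmp19, which is expressed in vessel walls, had a log2 fold change nearer to 0 than Mmp2, Mmp14 and Mmp23. It stood at 23.5, 21.4, 21.7 and 20.1 CPM in controls and 27.4, 27.7, 20.2 and 25.1 CPM in GK 7 to 10, with groups that overlapped through GK 9 (log2 fold change 0.21 ± 0.14, edgeR adjusted p = 0.343). A further 4 Mmp genes did not pass the filter. Mmp9 had 3 to 10 counts in every library, and the collagenase Mmp13 and Mmp21 had at most 2. The macrophage elastase Mmp12 had 22 counts in control 10 and at most 1 elsewhere, while the score of 6 macrophage markers was 6.27 in control 10 and 5.05 to 6.54 in the other controls.

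**Figure D2:**
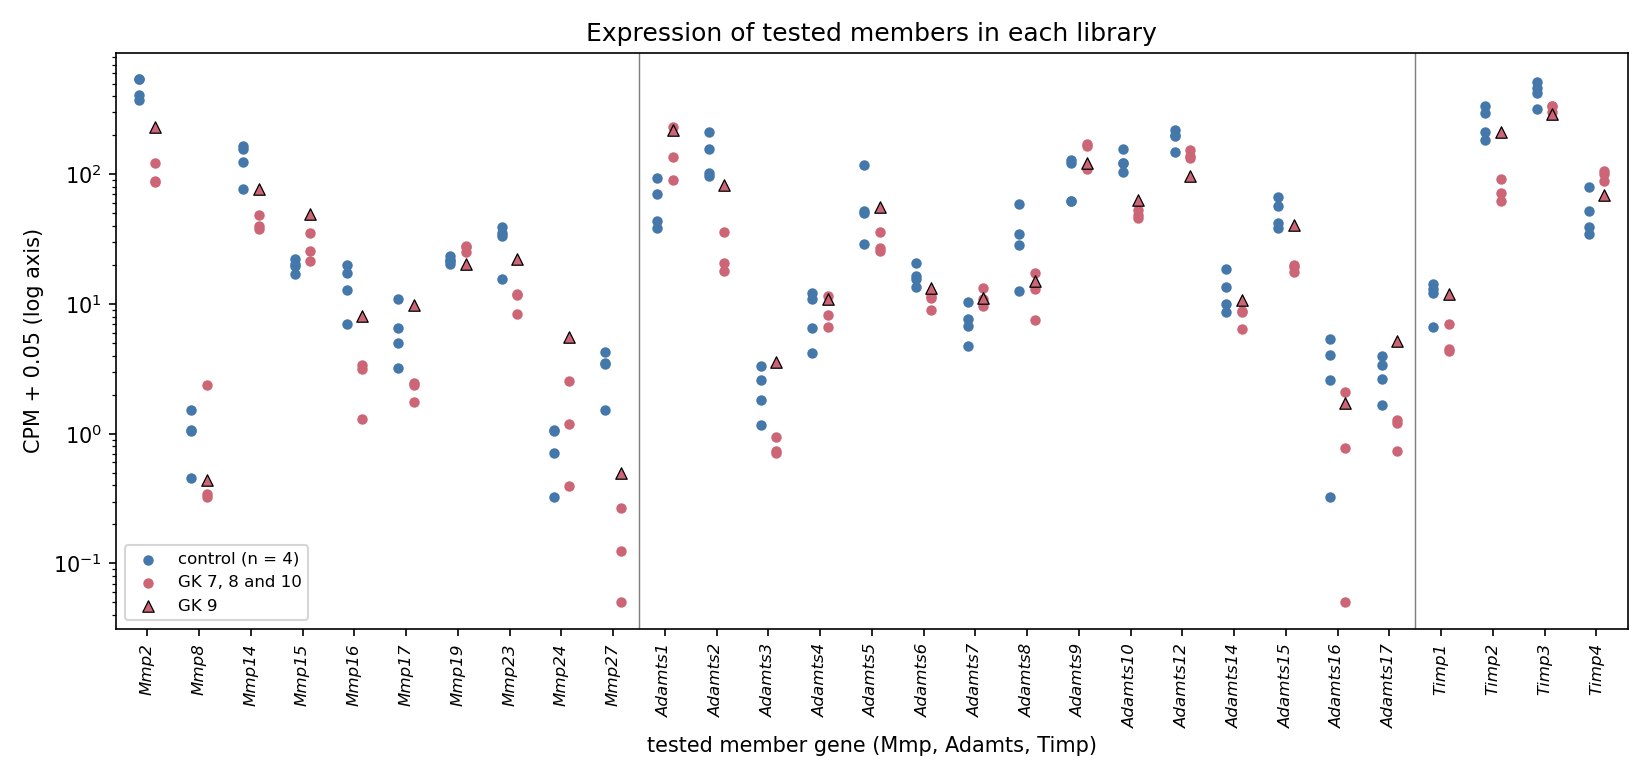
Each point is 1 library, with CPM plus 0.05 on a log axis for the 29 tested members along the horizontal axis, controls in blue, GK in red and GK 9 as a triangle. Mmp2, Mmp14, Mmp27, Adamts2, Adamts6 and Adamts10 are the 6 members whose 4 GK points all lie below their 4 control points, and GK 9 is often the highest GK point.

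Of the 15 tested ADAMTS genes 1 fell (6.67%, near the 7.28% of all genes). This was Adamts10, whose call held in more alternative fits than those of Mmp2, Mmp14 and Mmp27. Adamts10 (ENSRNOG00000008857; chromosome 7, 18409147 to 18439012), whose product binds fibrillin microfibrils, stood at 104, 121, 122 and 158 CPM in controls 7 to 10 and 46.1, 48.7, 63.7 and 53.2 CPM in GK 7 to 10. The groups were far apart, with the lowest control at 104 CPM and the highest GK library at 63.7 CPM. It was 2.39-fold lower, a log2 fold change of -1.25 ± 0.17 (edgeR adjusted p = 0.00846). The call held without each of the 8 libraries in turn (edgeR adjusted p 0.00352 to 0.0431), and with the adipocyte score the log2 fold change was -0.88 (edgeR adjusted p = 0.0548). Adamts6, its closest relative in the family, was at 15.5, 13.6, 20.5 and 16.4 CPM in controls and 11.1, 11.5, 13.3 and 8.99 CPM in GK. Those groups did not overlap either, by a margin of under 1 CPM, and the log2 fold change of -0.56 ± 0.18 missed the threshold (edgeR adjusted p = 0.0910).

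The procollagen N-proteinases, which cut the amino-terminal propeptide from fibrillar procollagen, are Adamts2, Adamts3 and Adamts14. Adamts2 was by far the most abundant of them, at 20.3 ± 10.2 FPKM in controls against 2.44 ± 0.802 for Adamts14 and 0.568 ± 0.283 for Adamts3. Its level was 96.2, 102, 210 and 158 CPM in controls 7 to 10 and 20.7, 35.6, 82.9 and 18.0 CPM in GK 7 to 10. The groups did not overlap, but both libraries numbered 9 stood above the rest of their group, and the log2 fold change of -1.85 ± 0.51 did not pass the test (edgeR adjusted p = 0.0619). Without GK 9 it did (log2 fold change -2.50, edgeR adjusted p = 0.00562). Adamts14 and Adamts3 had log2 fold changes of -0.55 ± 0.27 and -0.58 ± 0.61.

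The proteoglycan-cutting enzymes Adamts1, Adamts4, Adamts5, Adamts8, Adamts9 and Adamts15 were mixed. Adamts1, which cuts versican and aggrecan, stood at 38.5, 43.9, 92.8 and 70.8 CPM in controls 7 to 10 and at 90.9, 136, 218 and 230 CPM in GK 7 to 10. Control 9 lay just above GK 7 and the other libraries separated. The log2 fold change was 1.45 ± 0.37, with an edgeR adjusted p of 0.0520 in the full comparison. Without GK 9 it was 1.32 ± 0.38 (edgeR adjusted p = 0.0421), when 22.1% of all genes were called. Leaving out any other single library gave edgeR adjusted p-values of 0.0505 to 0.127. With the adipocyte score the log2 fold change was 2.37 (edgeR adjusted p = 0.0435). Adamts5, the main aggrecanase of mouse cartilage, was measured at 50.2, 28.9, 118 and 52.3 CPM in controls and 26.8, 35.9, 55.6 and 25.7 CPM in GK. Control 9 had over 2 times the level of any other control, the groups overlapped, and the log2 fold change was -0.79 ± 0.43 (edgeR adjusted p = 0.266). Adamts1 and Adamts5 are neighbours on chromosome 11 (25342126 to 25350974 and 25410975 to 25456836), with 60000 bases and no gene of the table between them, and their log2 fold changes had opposite signs; that difference was not tested.

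A second neighbouring pair, Adamts15 and Adamts8, lies on chromosome 8 with 18181 bases and no gene of the table between them. Both had log2 fold changes below 0, -1.07 ± 0.30 for Adamts15 and -1.35 ± 0.44 for Adamts8 (edgeR adjusted p = 0.0668 and 0.0943). Without GK 9 Adamts15 was called lower (edgeR adjusted p = 0.00555), and Adamts8 was called lower without control 7 (0.0474). Adamts9, which also acts on versican, had a log2 fold change of 0.60 ± 0.29 and Adamts4 of 0.14 ± 0.35.

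Adamts12, which with Adamts7 cuts cartilage oligomeric matrix protein, came after Adamts10 in controls per length, at 23.8 ± 5.48 FPKM. Its values were 218, 149, 198 and 199 CPM in controls and 135, 138, 96.9 and 154 CPM in GK 7 to 10. Control 8 lay below GK 10, and the log2 fold change was -0.55 ± 0.18 (edgeR adjusted p = 0.104). Adamts7 had 0.60 ± 0.24 on the same scale (edgeR adjusted p = 0.155). The log2 fold changes of the less abundant Adamts16 and Adamts17 were -1.44 ± 0.97 and -0.47 ± 0.62. Adamts18, Adamts19 and Adamts20 did not pass the filter. Adamts18 had 1 to 6 counts and Adamts19 0 to 16, while Adamts20 had 202 counts in GK 9 and 41 in control 9 against at most 28 in the other libraries.

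None of the 4 inhibitors passed the test, although 3 had an unadjusted edgeR p under 0.05 and DESeq2 called 2, Timp2 lower and Timp4 higher. Timp3, which is bound to the matrix, stood at 426, 459, 318 and 516 CPM in controls 7 to 10 and 299.5, 335, 294 and 338 CPM in GK 7 to 10. Control 9 alone lay within the GK range, and the log2 fold change was -0.44 ± 0.18 (edgeR adjusted p = 0.157). Timp2 was at 182, 210, 334 and 299 CPM in controls and 62.5, 91.7, 213 and 71.7 CPM in GK. Only GK 9 reached the control range, and the log2 fold change was -1.23 ± 0.41 (edgeR adjusted p = 0.0997; -1.75 and 0.00562 without GK 9).

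Timp4, the inhibitor most restricted to heart, vessels and fat, had the opposite sign. Its levels were 34.4, 79.6, 52.4 and 39.5 CPM in controls and 89.1, 101, 69.6 and 106 CPM in GK 7 to 10. GK 9 lay below control 8 and the other 3 GK libraries above every control, with a log2 fold change of 0.83 ± 0.27 (edgeR adjusted p = 0.0939; 0.0448 without GK 9). With the adipocyte score it was 0.20 (edgeR adjusted p = 0.771). Timp1, the inducible inhibitor, was the least abundant per length in controls (16.7 ± 6.28 FPKM), with 6.61, 12.0, 14.2 and 13.0 CPM in controls and 4.31, 7.00, 11.9 and 4.45 CPM in GK. Those groups overlapped (log2 fold change -0.73 ± 0.38, edgeR adjusted p = 0.247), and without GK 9 Timp1 was called lower (edgeR adjusted p = 0.0376).

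Summed per family, the enzymes and inhibitors did not keep the same proportion. The Mmp genes together reached 207, 190, 355 and 314 FPKM in controls 7 to 10 and 60.5, 87.7, 174 and 58.7 FPKM in GK 7 to 10, without overlap. The Timp sums were 387, 416, 536 and 563 FPKM in controls and 225, 307, 415 and 252 FPKM in GK, where GK 9 lay above control 7. The ratio of the Timp sum to the Mmp sum, in which the scaling of a library cancels, was 1.51 to 2.19 in controls and 2.39 to 4.29 in GK, with GK 9 the lowest of its group. Mmp2 alone gave 61.7% ± 2.13 of the Mmp sum in controls and 43.8% ± 5.14 in GK, again without overlap (59.7% to 64.8% and 40.0% to 51.0%). The Adamts sums were 102 to 228 FPKM and 78.5 to 170 FPKM and overlapped widely. These sums describe the libraries and carry no test.

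**Figure D3:**
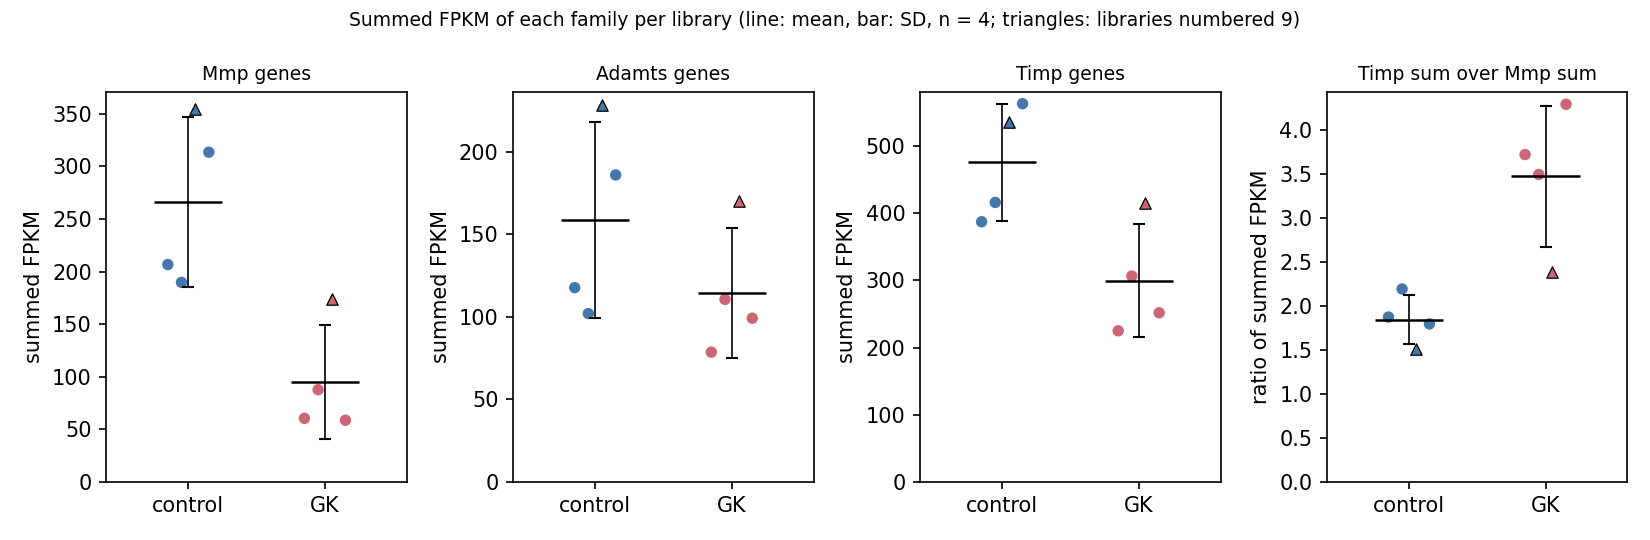
Summed FPKM of the 14 Mmp, 18 Adamts and 4 Timp genes, and the ratio of the Timp to the Mmp sum, on vertical axes that start at 0, with 1 point per library, triangles for the libraries numbered 9, a line at the mean and a bar for the SD (n = 4). The Mmp sums (190 to 355 FPKM in controls, 58.7 to 174 in GK) and the ratios do not overlap between the groups, and the Adamts and Timp sums do.

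High values of the members gathered in few libraries. GK 9 was the highest GK library for 18 of the 29 tested members (62.1%), against 38.7% of all genes tested. In controls the highest value was in control 10 for 11 members and in control 9 for 10, against 19.6% and 27.8% of all genes. The fibroblast gene Pdgfra was at 118 CPM in GK 9 and at 39.9 to 57.2 CPM in GK 7, 8 and 10, while the brown fat gene Ucp1 was at 1101 CPM in GK 9 and 2986 to 3700 CPM there. The part of these cell types in the members' values was not tested. The covariate fit given above used fat markers only and cannot clearly separate their score from the group.

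Genes that work with these enzymes also mostly lay lower in GK, in lists chosen with earlier results of these data known. Their counts therefore describe the lists only. Of 48 tested genes among 56 listed as activators, other metzincins, regulators, cathepsins and substrates, 9 fell and none rose (18.8%, against the 7.28% of all genes), with a median log2 fold change of -0.53. At an unadjusted edgeR p under 0.05 there were 20 of the 48 (3775 of all 13673 genes), and DESeq2 called 13 lower and 3 higher (18.2% of all genes). Without GK 9, 22 were lower and 1 higher, when 22.1% of all genes were called. With the adipocyte score 2 were lower and 2 higher, when 4.6% of all genes were called. In the full comparison the shares called were 9.09% for activators, 18.2% for other metzincins, 7.69% for regulators, 20% for cathepsins and 50% for substrates. Among 11 tested genes that activate proenzymes, 1 fell, the proprotein convertase Pcsk5 (91.4 ± 36.1 CPM in controls, 37.3 ± 3.41 in GK, edgeR adjusted p = 0.0300). Among 11 other metzincins 2 fell, Adam33, a membrane-bound relative expressed in smooth muscle and fibroblasts (45.4 ± 15.7 to 9.03 ± 3.71 CPM, edgeR adjusted p = 0.0124), and Bmp1, the procollagen C-proteinase (67.4 ± 13.4 to 33.2 ± 10.8 CPM, edgeR adjusted p = 0.0441). Of 13 ADAMTS-like proteins and regulators Adamtsl4, a microfibril-binding protein without protease activity, fell from 118 ± 34.2 to 44.5 ± 19.0 CPM (edgeR adjusted p = 0.0397), and of 5 cathepsins and their inhibitor Cst3, cystatin C, fell from 236 ± 57.1 to 77.1 ± 19.0 CPM (edgeR adjusted p = 0.0122). The membrane inhibitor Reck had a log2 fold change of -0.74 ± 0.44 (edgeR adjusted p = 0.307). Of the 48 tested genes, 12 had a log2 fold change above 0. Groups did not overlap for 2 that were higher in GK and 12 that were lower (29.2%, against 15.6% of all genes). The 2 higher were Plat (0.59 ± 0.18, edgeR adjusted p = 0.0799) and Papln (1.02 ± 0.34, edgeR adjusted p = 0.101). Of 8 tested substrates 4 fell, Eln, Fbn1, Col1a1 and Col3a1, with log2 fold changes of -3.71, -1.75, -2.59 and -2.33 (edgeR adjusted p 0.0128 to 0.0345), while the versican gene Vcan, at -1.33 ± 0.35, had an edgeR adjusted p of 0.0571.

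Long non-coding RNA (lncRNA) transcripts overlapped the spans of 18 members, some of them running past the end of the gene. The lncRNA table holds its own counts, tested by its own edgeR fit, in which 2.74% of 11683 transcripts were called. Of 36 transcripts that overlapped a member, 21 passed the filter on low counts, and 2 were called, both higher in GK. MSTRG.29763.2, within Adamts9 (chromosome 4, 124714260 to 124718999 in the files' coordinates), had 3, 4, 2 and 4 counts in controls 7 to 10 and 13, 19, 43 and 36 in the GK libraries. Its groups did not overlap (log2 fold change 3.06 ± 0.50, edgeR adjusted p = 0.0186), while Adamts9 itself overlapped between the groups. MSTRG.21113.13, within Adamts12 (chromosome 2, 61058306 to 61130215), had 48, 17, 42 and 90 counts in controls and 205, 113, 170 and 187 in GK. Its log2 fold change was 1.92 ± 0.36 (edgeR adjusted p = 0.0308), the opposite sign to that of Adamts12. Transcripts MSTRG.21113.14 and MSTRG.21117.1, also within Adamts12, had the sign of the gene (-1.37 ± 0.38 and -0.73 ± 0.22, edgeR adjusted p = 0.0987 and 0.123). Within Adamts9, NONRATT021628.2 was at -0.85 ± 0.24 (edgeR adjusted p = 0.108). The other tested Adamts9 transcripts, NONRATT020730.2, NONRATT020728.2 and NONRATT020729.2, lay above 0 without a call. Leaving out control 7, 9 or 10 ended the call of MSTRG.29763.2 (edgeR adjusted p of up to 0.0697), and leaving out control 7, 8 or 9 or GK 7, 8 or 10 that of MSTRG.21113.13 (up to 0.0952). With the adipocyte score the log2 fold changes of MSTRG.29763.2 and MSTRG.21113.13 were 3.30 ± 0.74 and 2.40 ± 0.65, and neither was called (edgeR adjusted p = 0.128 and 0.177). That fit cannot clearly separate the score from the group.

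The authors' deposited table of predicted pairs names 5 lncRNA and member pairs, over Adamts8, Adamts9 (with 2 transcripts), Adamts12 and Timp4, all inside the member's own span. By its name it covers only lncRNAs that the authors found to differ between these same groups. Differences of the paired transcripts between GK and control are therefore no separate evidence. For Timp4 the transcript NONRATT021719.2 had 14 to 29 counts in controls and 37 to 112 in GK (edgeR adjusted p = 0.0744), and for Adamts8 MSTRG.39041.1 had 19 to 106 and 7 to 15 counts (0.0649). Neither file gives a strand, so reads of a gene and of a transcript within it cannot be told apart. Outside these pairs, NONRATT026609.2, which overlaps Timp3, had 8001 to 17293 counts per library, against 4104 to 7558 for the gene. The Timp3 level, the Timp sums and their ratio to the Mmp sums may depend on how such reads were assigned, which was not tested.

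**Figure D4:**
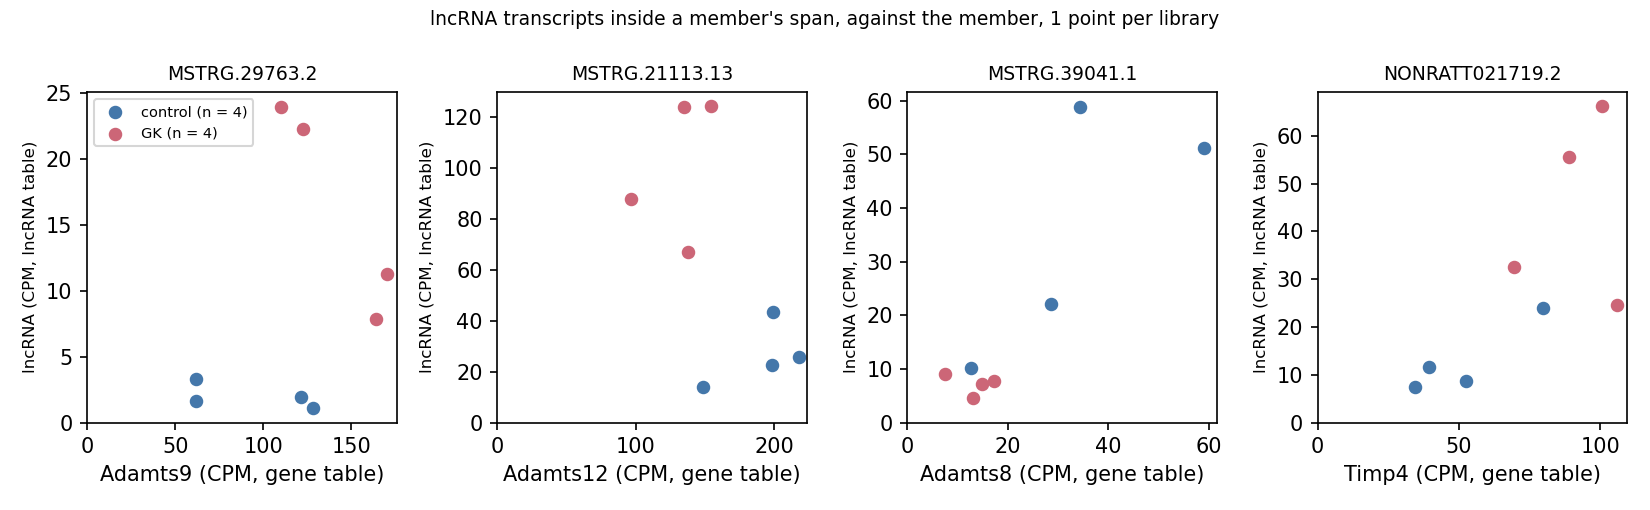
Each panel sets the CPM of a member (horizontal axis, gene table) against the CPM of an lncRNA transcript within its span (vertical axis, lncRNA table), with 1 point per library, blue for control and red for GK (n = 4 each). The GK points of MSTRG.29763.2 and MSTRG.21113.13 all lie above the control points, while those of Adamts9 and Adamts12 overlap along the horizontal axis. The pairs are the authors' predicted ones, which by the name of their source hold only lncRNAs found to differ between these groups.

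How far each difference depended on single libraries and settings varied by gene. Across 14 alternative fits Adamts10 was called in 13, Mmp27 in 10, Mmp2 in 9 and Mmp14 in 7, all with the same sign, and the sign of the log2 fold change of these 4 held in all 14. Among members not called in the full comparison, Adamts1 was called higher in 5 of 14, and Mmp16, Mmp23, Adamts2, Adamts15 and Timp2 lower in 4 each. Timp4 was called higher in 4. Without GK 9 the genes Adamts3, Adamts6 and Adamts17 were called lower as well (edgeR adjusted p = 0.0372, 0.0397 and 0.0350). With the adipocyte score the sign turned for 6 members, none of them called in that fit: the log2 fold change was 1.28 for Adamts3, 1.01 for Adamts17, 0.60 for Adamts5, 0.95 for Mmp17, 0.10 for Timp1 and -0.08 for Mmp19.

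**Figure D5:**
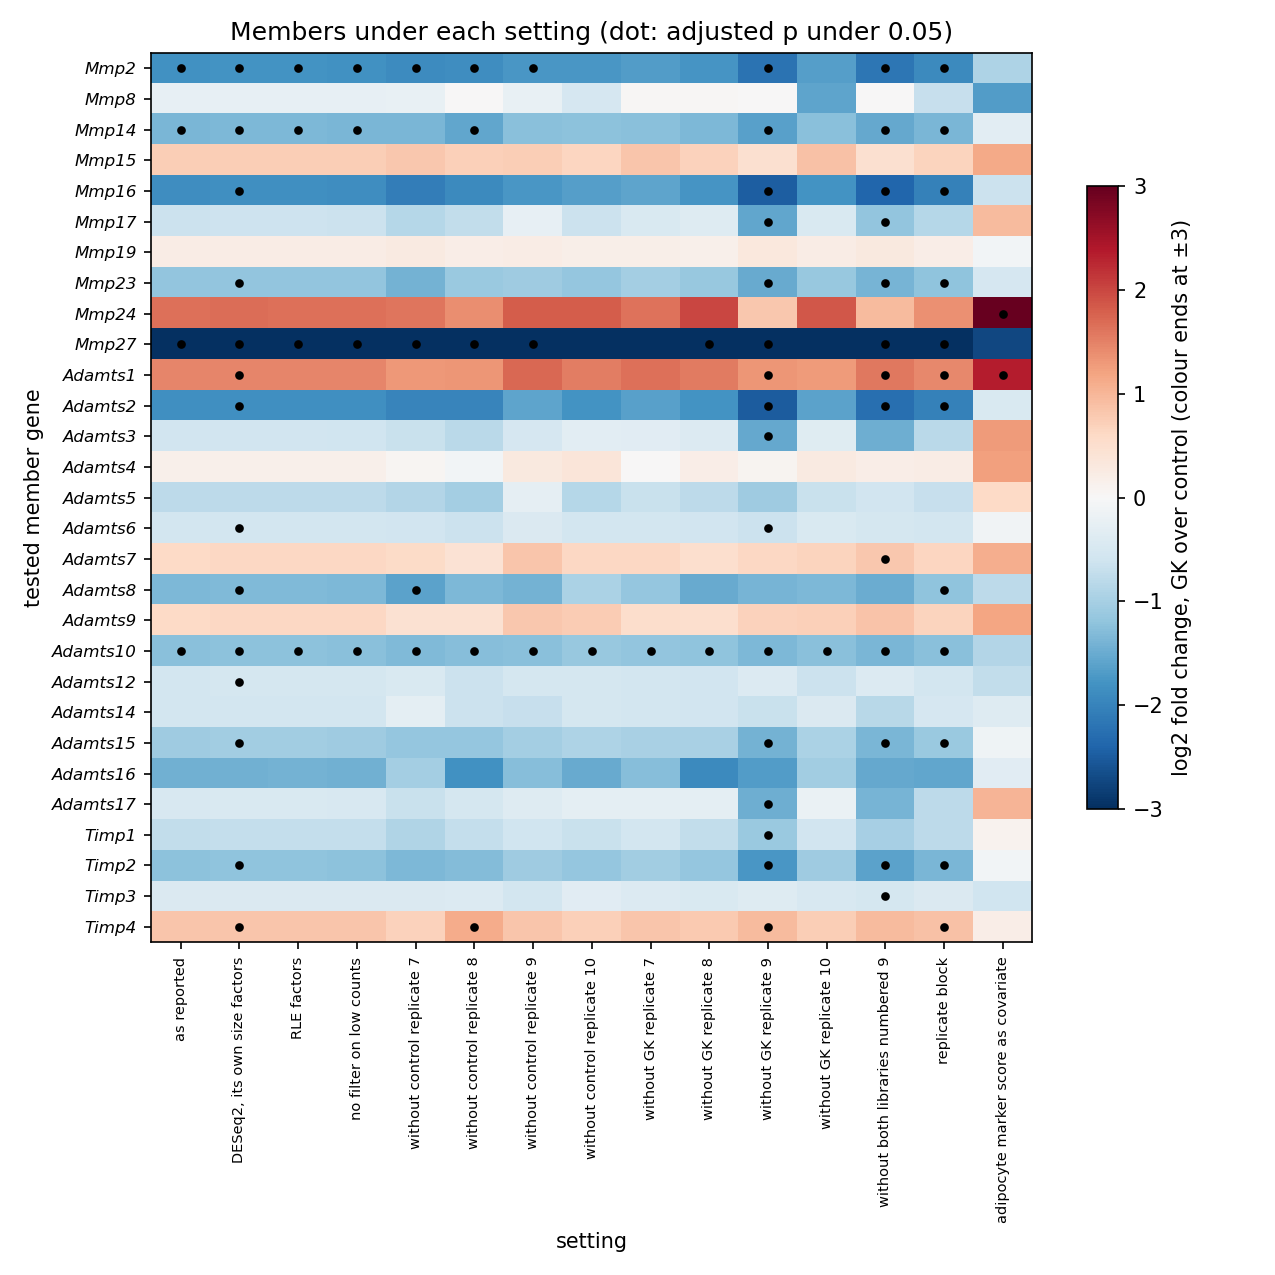
Rows are the 29 tested members and columns the reported fit and 14 alternatives, coloured by log2 fold change of GK over control (red higher, blue lower, colour ending at 3 in either direction), with a dot where the adjusted p was under 0.05. Adamts10 has a dot in every column except the adipocyte score, and the column without GK 9 holds 16 dots.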

How the data were processed

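Raw counts and FPKM of each library, for genes and for lncRNA transcripts, were deposited by the authors, per the file headers. The log2 fold changes and q-values in the authors' deposited table come from edgeR per the file names, and only their calls were used. Bowtie 0.12.2 and the mouse builds mm8 and mm9 are named in the submitters' processing notes, without a role, and a rat build is not named in the sources used here. All source names say GK, even for controls, so groups follow the titles.

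Counts were tested in R 4.3.3 with edgeR 4.0.16 (filterByExpr, TMM factors of 0.826 to 1.24, glmQLFit with group alone, glmQLFTest), with Benjamini-Hochberg adjustment over all genes tested and a threshold of 0.05. CPM are counts over the library total times its TMM factor, and each SE is |log2 fold change| divided by the square root of F. The script was tested on simulated data. DESeq2 1.42.0 and 13 other fits were alternatives. Written out with all values were members past the test, the 4 Timp genes, the 4 Mmp and 4 Adamts genes with the highest FPKM, and members whose groups did not overlap. The members of each list, the rules and the alternatives were chosen with earlier results of these data known, and the lncRNA fits were added after seeing the data. Promoters come from RefSeq (GRCr8), the first window per gene.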

Additional observations from a re-analysis of the deposited data

Results flagged for a closer look

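For 5 members 1 library stood far from the other 3 of its group on the log2(CPM + 1) scale, with a gap over the group's range above Dixon's 95% critical value of 0.829. Chance alone flags about 1 in 20 groups. Each of the 29 tested members has 2 groups, so some flags would arise by chance, and the share flagged over all genes was not computed. GK 9 was the highest GK library for 62.1% of the tested members and for 38.7% of all genes tested. GK 9 was the high library for Mmp17 (9.81 CPM against 1.72 to 2.42), Adamts3 (3.55 CPM against 0.657 to 0.892) and Adamts15 (40.5 CPM against 17.7 to 19.97). Without it each of them was called lower in GK (edgeR adjusted p = 0.0359, 0.0372 and 0.00555), when 22.1% of all genes were called. Leaving out the flagged high library lowers the GK mean in any case, so these calls are no separate evidence. GK 10 was the high library for Mmp8, at 2.34 CPM against 0.275 to 0.387. Control 7 was the low library for Mmp23, at 15.4 CPM against 33.5 to 39.2, with a gap only just above the critical value.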

How the results depend on the processing

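Single libraries moved every count. Leaving out each library in turn gave 135 to 3046 genes called over all genes (995 with all libraries), 0 to 6 of the Mmp genes (3), 1 to 7 of the Adamts genes (1), 0 to 3 of the Timp genes (0) and 2 to 23 of the related genes (9), the highest each time without GK 9. Without both libraries numbered 9 the counts were 2534, 6, 5, 2 and 21. DESeq2 gave 2489, 5, 7, 2 and 16. The library number as a replicate block gave 2372, 5, 5, 2 and 19, but the numbers were not treated as pairs, since deviations of same-numbered libraries correlated above 0.1 for only 2 of 4 numbers (r = 0.42, 0.07, 0.55 and 0.02), and 2 of 4 controls correlated best with their own number. With the adipocyte score as a covariate the counts were 629, 1, 1, 0 and 4 (2 lower and 2 higher). That fit ended the calls of Mmp2, Mmp14, Mmp27 and Adamts10, and the Mmp gene called was Mmp24, higher in GK. The score largely followed the group, so that fit cannot clearly separate them. Without a filter 654 genes were called over all genes. RLE factors left all 29 members on the same side of the threshold, and no member was called with opposite signs in any of the 14 alternatives, although 8 members changed sign without a call in at least 1, 6 of them with the adipocyte score. The causes of these shifts were not tested. Counts of 0 to 22 per library limit what can be seen for Mmp9, Mmp12, Mmp13, Mmp21, Adamts18 and Adamts19, and for Mmp27 in GK.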
